A study of Homo sapiens with 6 samples.

Results

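The 4 arrays described here set 2 siRNA knock-downs in Ewing sarcoma cells directly against each other, and they are 4 of the 6 arrays of the series. They were chosen by label: 2 arrays of cells given an siRNA against DKK2 (siDKK2) and 2 of cells given an siRNA against ITM2A (siITM2A), 1 of each in A673 and 1 in SK-N-MC. A673 and SK-N-MC are established human lines of Ewing sarcoma, which arises mostly in the bones of children and young adults. The other 2 arrays, 1 per line, came from cells given a non-silencing control siRNA; their levels are printed beside the results, but they took no part in the difference itself. The labels number the DKK2 siRNA 1 in both lines, whereas the ITM2A siRNA is numbered 7 in A673 and 1 in SK-N-MC, so the 2 lines may not have received the same ITM2A oligonucleotide. No time after transfection, dose or passage was given in the labels used here. Total RNA was hybridised to Affymetrix whole-transcript arrays, which read each gene with a set of probes summarised to 1 value on the log2 scale.

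A comparison of 1 knock-down with another holds in common what both transfections share, and it shows where the cells' transcripts differ between the 2 siRNAs. It cannot say which of the 2 siRNAs moved a gene, for which the control arrays' levels are given. DKK2 is a secreted protein of the Dickkopf family that binds the Wnt co-receptors LRP5 and LRP6, and ITM2A is a single-span membrane protein of a small family with ITM2B and ITM2C. Small double-stranded RNAs can be sensed by RIGI, IFIH1, EIF2AK2 and the oligoadenylate synthetases, the proteins that also recognise viral RNA. Type I interferon acts in part through IRF9, which helps to bind the interferon-stimulated response element of target promoters such as that of IFIT1.

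The promoters of the interferon genes that the results turn on are shown first, as RefSeq gives them on build GRCh38.p14, each read 5′ to 3′ on the plus strand and ending upstream of the annotated start site. Capitals mark matches to TTTCNNTTTC, the core letters of the interferon-stimulated response element on either strand, and in IRF9 to TTCNNNGAA, the letters of the interferon-gamma activated site, which read the same on both strands.
IFIT1 (chr10:89392482-89392554): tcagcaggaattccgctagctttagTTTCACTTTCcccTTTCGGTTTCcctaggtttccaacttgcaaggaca
IFI44L (chr1:78620259-78620409): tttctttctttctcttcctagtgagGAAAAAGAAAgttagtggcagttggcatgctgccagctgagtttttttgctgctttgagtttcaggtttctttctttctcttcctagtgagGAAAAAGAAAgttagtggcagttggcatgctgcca
IFI44 (chr1:78649746-78649788): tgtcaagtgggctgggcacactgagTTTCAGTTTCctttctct
IRF9 (chr14:24161177-24161235): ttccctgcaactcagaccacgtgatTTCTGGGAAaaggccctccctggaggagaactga
The IFIT1 and IFI44L stretches each hold 2 matches and the other stretches 1. The windows searched ran from 250 bases before to 50 after a start site, and a gene counted if any of its windows held the letters. The response-element letters were in a window of 21 of the 27 interferon effector genes with a window (77.8%) and of 4.12% of the 14237 tested genes with one. Of the 12 genes past the threshold below that had a window, 1 held them, which was IFIT1. The activated-site letters were in a window of 9.19% of the tested genes with one, of 7 of the 27 effectors (25.9%) and of 1 of those 12 genes (8.33%), IRF9. A match describes the letters and is not evidence of binding.

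In 18 genes siDKK2 and siITM2A differed past the threshold, 14 lower and 4 higher with siDKK2, out of 18417 genes tested (limma on the 4 arrays with the cell line as a block, adjusted p under 0.05). These are 0.0977% of the genes, with 0.076% lower and 0.0217% higher. They include both siRNA targets, and among the rest are a vacuolar proton pump subunit (ATP6V1D), an integrin-activating adaptor (FERMT2), a gelatinase (MMP9), a bone morphogenetic protein signal transducer (SMAD1) and 2 interferon-response genes (IFIT1, IRF9). The 4 arrays leave 1 residual degree of freedom, and on simulated data this fit made more false calls than its threshold allows. A second fit, which adds the 2 control arrays to estimate the spread and leaves the differences as they are, called 3 of the 18: ITM2A, ANKRD46 and ATP6V1D (0.0163% of genes, with 0.0109% lower and 0.00543% higher). In that fit the other 15 stood at adjusted p-values of 0.0957 to 0.449, and each gene's value there follows its result below. In all, 1751 genes had an unadjusted p under 0.05 with 4 arrays (9.51%) and 1533 with all 6 (8.32%).

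**Figure D1:**
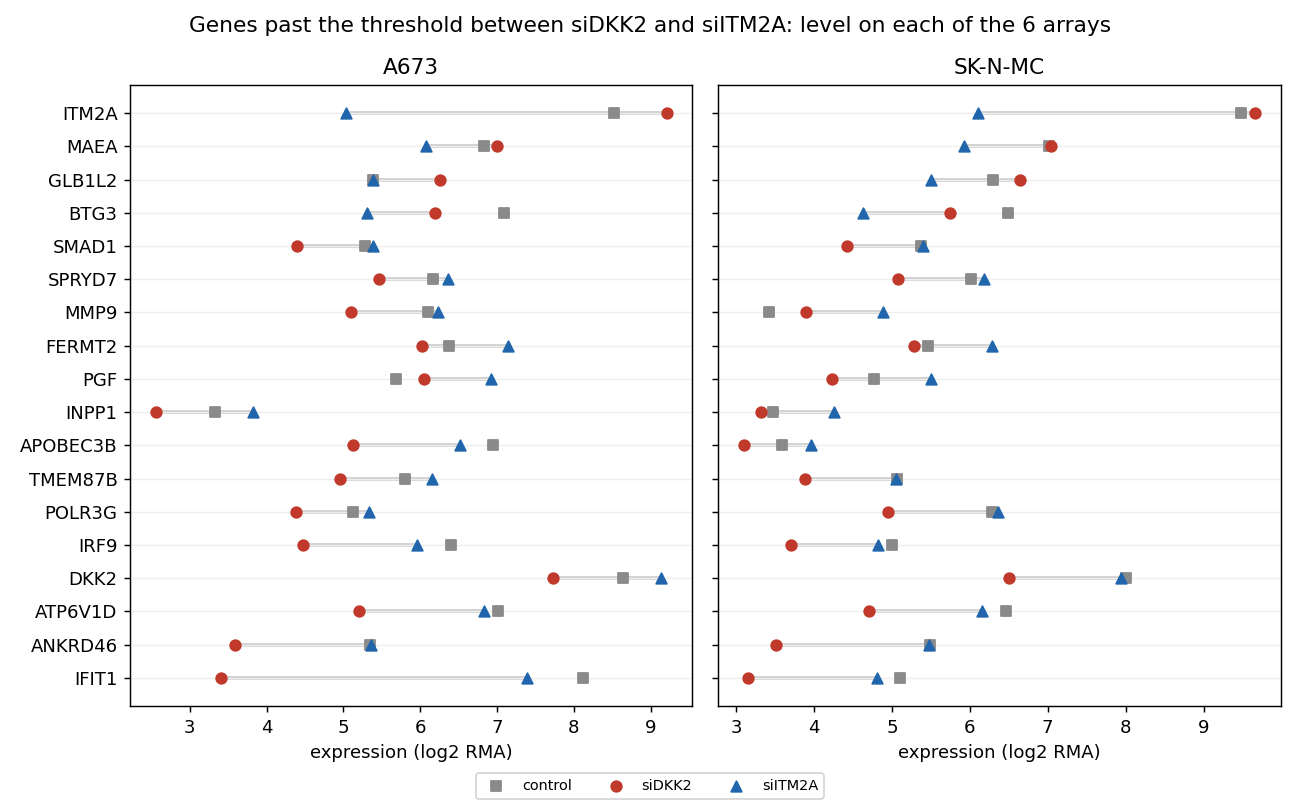
Level of each of the 18 genes past the threshold on the 6 arrays (horizontal axis, log2 RMA), A673 at left and SK-N-MC at right, with 1 point per array and a grey bar joining the 2 knock-downs. ITM2A at the top is lowest with siITM2A in both lines, whereas ANKRD46 and ATP6V1D are lowest with siDKK2 and near the control with siITM2A.

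Of the 2 targets, ITM2A (probe set 8173755) was far lower with its own siRNA. It stood at 9.21 with siDKK2 and 5.03 with siITM2A in A673, and at 9.66 and 6.10 in SK-N-MC, against 8.52 and 9.48 on the control arrays. ITM2A was 18.1-fold (A673) and 11.8-fold (SK-N-MC) higher with siDKK2. The fitted log2 difference was 3.87 ± 0.17 (SE, n = 2 lines, limma adjusted p = 2.4e-05, and 0.00017 with all 6 arrays). Its relatives ITM2B, the BRI protein whose processing yields amyloid-forming peptides in familial dementias, and ITM2C differed by -0.04 and 0.39 and did not pass.

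DKK2 (probe set 8102200) stood at 7.73 with siDKK2 and 9.13 with siITM2A in A673, and at 6.50 and 7.94 in SK-N-MC, with 8.64 and 8.01 on the control arrays. DKK2 was thus 2.64-fold (A673) and 2.70-fold (SK-N-MC) lower with siDKK2, and its difference of -1.42 ± 0.14 passed with 4 arrays (adjusted p = 0.0077) and not with 6 (adjusted p = 0.0957). With siITM2A it lay above the control in A673 and just below it in SK-N-MC. The knock-down of ITM2A was therefore larger on the log2 scale than that of DKK2 in both lines.

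Of the 10 measured Dickkopfs, receptors and the related inhibitor SOST, 1 passed, DKK2 itself, and 9 did not. The co-receptors LRP5 (0.11 ± 0.14) and LRP6 (-0.12 ± 0.16) and the Dickkopf receptors KREMEN1 (0.19 ± 0.14) and KREMEN2 (-0.17 ± 0.14) stayed within about 1.5 SE of 0. DKK1, a Wnt antagonist that like DKK2 binds LRP6, was near the bottom of the scale on all 4 arrays (2.12 to 2.33). Of the 22 measured Frizzled receptors and Wnt regulators 0 passed (limma, 6 at an unadjusted p under 0.05, against 9.51% of all genes). Their median difference was -0.05. The receptor gene FZD8 had the largest value, 6.64 against 5.96 in A673 and 5.91 against 5.25 in SK-N-MC (0.67 ± 0.14, adjusted p = 0.153). Of the 14 Wnt target genes 0 passed (limma, 2 at an unadjusted p under 0.05, against 9.51% of all genes). AXIN2, a feedback inhibitor induced in many Wnt-responsive cells, differed by 0.06 ± 0.15, and LEF1 by -0.14 ± 0.15.

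Apart from ITM2A, ANKRD46 and ATP6V1D were the genes that passed in both fits. ANKRD46 (probe set 8152053), an ankyrin-repeat protein gene, stood at 3.59 with siDKK2 and 5.36 with siITM2A in A673, and at 3.51 and 5.48 in SK-N-MC. The control arrays lay at 5.35 and 5.49, within 0.1 of the siITM2A arrays. With siDKK2 its level was 3.42-fold lower in the first line and 3.93-fold lower in the second (-1.88 ± 0.14, adjusted p = 0.00161, and 0.00376 with 6 arrays).

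ATP6V1D (probe set 7979698), a subunit of the central stalk of the proton pump that acidifies lysosomes, stood at 5.20 with siDKK2 and 6.83 with siITM2A in A673, and at 4.70 and 6.16 in SK-N-MC. It was 3.09-fold and 2.75-fold lower with siDKK2 (-1.54 ± 0.14, adjusted p = 0.00572, and 0.00979 with 6 arrays). Of 23 measured pump subunits and accessory proteins it was the 1 that passed. The list's median difference was -0.08, with 10 members lower and 4 higher in both lines (43.5% and 17.4%, against 27.5% and 27.4% of all genes). ATP6V1B1, a subunit of the catalytic head, was next lowest, at -0.49 and -0.27 in the 2 lines (-0.38 ± 0.14, adjusted p = 0.435), followed by ATP6V1C1 (-0.34 and -0.22) and ATP6V0A2 (-0.33 and -0.21). At the other end ATP6V1A, the catalytic subunit, differed by 0.20 ± 0.14, and ATP6V1F, which sits in the same stalk, by 0.10 ± 0.14.

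Arrays were also left out 1 at a time, in the fit with the control arrays. Each omission leaves 1 array of that siRNA, so for single genes only the estimates are given. The estimate of ITM2A stayed between 3.59 and 4.15. The estimate of ANKRD46 stayed between -1.98 and -1.77 and that of ATP6V1D between -1.61 and -1.47.

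FERMT2 (probe set 7979204), which encodes kindlin-2, an adaptor that binds integrin tails and helps to activate them, stood at 6.02 with siDKK2 and 7.14 with siITM2A in A673, and at 5.29 and 6.29 in SK-N-MC. The control arrays, at 6.37 and 5.46, lay nearer to siDKK2 than to siITM2A in both lines. FERMT2 was 2.17-fold and 2.01-fold lower with siDKK2 (-1.06 ± 0.14, adjusted p = 0.0473, and 0.0957 with 6 arrays).

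Of the 19 measured kindlins, talins and adhesion adaptors FERMT2 was the 1 that passed. In both lines 5 were lower and 5 higher (26.3% each, against 27.5% and 27.4% of all genes). FERMT3, the kindlin best known from blood cells, was lower by value in both lines (-0.44 ± 0.14, adjusted p = 0.359), as was LIMS1, a partner of integrin-linked kinase (-0.38 ± 0.14, and -0.21 with the siDKK2 array of A673 left out). PARVA, the parvin of the same complex, had the highest value (0.46 ± 0.14). FERMT1 stood at 2.59 and 2.40 in A673 against 5.42 and 5.60 in SK-N-MC, a difference between the lines and not between the siRNAs. Of 18 measured integrins 0 passed (limma, 4 at an unadjusted p under 0.05, each lower with siDKK2, against 9.51% of all genes in either direction). In both lines 9 were lower and 3 higher (50% and 16.7%, against 27.5% and 27.4% of all genes). The list's median levels on the 4 arrays were 2.82 to 3.23, under the median gene level of 4.04. ITGAV, the subunit of several vitronectin receptors, differed by -0.33 (A673) and -0.64 (SK-N-MC), with a fitted value of -0.49 ± 0.15 (adjusted p = 0.326), and ITGB1 by -0.19 and -0.13.

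MMP9 (probe set 8063115), a gelatinase that cleaves type IV collagen, stood at 5.10 with siDKK2 and 6.23 with siITM2A in A673, and at 3.90 and 4.88 in SK-N-MC. MMP9 was 2.19-fold and 1.98-fold lower with siDKK2 (-1.06 ± 0.14, adjusted p = 0.0473). The control arrays did not place it alike: in A673 the control, at 6.10, lay beside siITM2A, and in SK-N-MC, at 3.42, below both knock-downs. With 6 arrays its adjusted p was 0.449, the highest of the 18 genes. With 1 array left out, the estimate for MMP9 was -0.65 (A673 siDKK2 omitted), -0.76 (SK-N-MC siITM2A omitted), -1.35 (A673 siITM2A omitted) or -1.46 (SK-N-MC siDKK2 omitted).

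MMP9 was the 1 that passed of 22 measured matrix metalloproteinases, their inhibitors and plasminogen activators. The list's median difference was -0.18, with 12 members lower and 2 higher in both lines, against 27.5% of all genes lower and 27.4% higher in both lines. MMP2, the other gelatinase, stood at 6.56 against 7.18 in A673 and 4.02 against 4.25 in SK-N-MC (-0.42 ± 0.15, adjusted p = 0.418). The urokinase gene PLAU was lower by value in both lines (-0.40 ± 0.14, and -0.21 with the siDKK2 array of A673 left out), and so was RECK, a membrane-anchored inhibitor of these proteases (-0.47 ± 0.14). The collagenase MMP1 stood at 11.02 against 11.72 in A673 and near 3 in SK-N-MC (2.95 and 3.02).

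TMEM87B (probe set 8044417), which encodes a Golgi membrane protein, stood at 4.96 with siDKK2 and 6.15 with siITM2A in A673, and at 3.89 and 5.05 in SK-N-MC. It was 2.29-fold and 2.24-fold lower (-1.18 ± 0.14, adjusted p = 0.0251, and 0.0957 with 6 arrays), the 2 lines differing by less than 0.1. Its close relative TMEM87A differed by -0.18 and 0.37, and WLS, the carrier that takes Wnt proteins to the cell surface, by -0.11 and 0.10. Of the 6 measured Golgi and secretory 7-span proteins 1 passed.

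Outside the interferon gene lists described below, the remaining genes lower with siDKK2 were SMAD1, POLR3G, PGF, INPP1, SPRYD7 and APOBEC3B. Whether any of them responds to interferon was not tested. SMAD1, which carries bone morphogenetic protein signals to the nucleus, stood at 4.40 and 5.38 in A673 and at 4.43 and 5.40 in SK-N-MC, with the controls at 5.28 and 5.37 beside siITM2A (-0.97 ± 0.14, adjusted p = 0.0481, and 0.106 with 6 arrays). POLR3G, a subunit of RNA polymerase III found in stem and tumour cells, stood at 4.38 and 5.33 in A673 and at 4.95 and 6.36 in SK-N-MC (-1.18 ± 0.16, with an adjusted p = 0.0473, and 0.126 with 6 arrays). These genes lay below the control array with siDKK2 in both lines.

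PGF, a growth factor of the VEGF family, stood at 6.05 with siDKK2 and 6.92 with siITM2A in A673, and at 4.23 and 5.50 in SK-N-MC (-1.07 ± 0.15, with an adjusted p = 0.0481, and 0.26 with 6 arrays). The control arrays lay at 5.69 and 4.77, so that siITM2A was above the control in both lines while siDKK2 was above it in A673 and below it in SK-N-MC. The estimate for PGF was -0.75 with the siDKK2 array of SK-N-MC left out. INPP1, an inositol phosphatase, was the 1 gene of the 18 under the median gene level of 4.04, at 2.56 and 3.83 in A673 and 3.32 and 4.26 in SK-N-MC (-1.11 ± 0.15, with an adjusted p = 0.0473, and 0.135 with 6 arrays). In the fit with the control arrays INPP1 differed by -1.34 with the siDKK2 array of SK-N-MC left out. With that of A673 left out it differed by -0.87. SPRYD7 differed by -0.89 and -1.10 (-0.99 ± 0.14, adjusted p = 0.0481, and 0.111 with 6 arrays). APOBEC3B, a cytidine deaminase that edits single-stranded DNA, differed by -1.41 and -0.87 (-1.14 ± 0.16, adjusted p = 0.0485, and 0.333 with 6 arrays), and by -0.67 with the siDKK2 array of A673 left out. APOBEC3B belongs to a family of similar neighbouring genes, so its probes may read relatives as well.

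The 4 genes higher with siDKK2 were ITM2A, BTG3, MAEA and GLB1L2. BTG3 (probe set 8069565), one of a family of genes that restrain proliferation, stood at 6.19 with siDKK2 and 5.31 with siITM2A in A673, and at 5.75 and 4.63 in SK-N-MC. Both knock-downs lay below the control arrays, at 7.09 and 6.49, and siITM2A lay lower (1.00 ± 0.14, adjusted p = 0.0481, and 0.109 with 6 arrays). Of the 5 measured BTG/TOB genes 1 passed; BTG1 differed by -0.49 and 0.14, TOB1 by -0.30 and -0.07, and TOB2 by -0.02 and -0.09.

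MAEA (probe set 8093462), a RING protein of the CTLH ubiquitin ligase, stood at 7.0 with siDKK2 and 6.08 with siITM2A in A673, and at 7.04 and 5.92 in SK-N-MC. The controls, at 6.83 and 7.02, were close to siDKK2 (1.02 ± 0.14, adjusted p = 0.0481, and 0.111 with 6 arrays). None of the other 10 measured CTLH members passed, and its RING partner RMND5A differed by 0.31 ± 0.16. GLB1L2 (probe set 7945321), a relative of the lysosomal beta-galactosidase GLB1, stood at 6.26 and 5.38 in A673 and at 6.65 and 5.50 in SK-N-MC (1.01 ± 0.14, with an adjusted p = 0.0481, and 0.26 with 6 arrays). In A673 siITM2A sat on the control level of 5.38, and in SK-N-MC the control of 6.30 lay between the knock-downs. GLB1 itself differed by 0.05 ± 0.14.

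Set against the control arrays, the 18 genes fall into different patterns. With siDKK2 10 genes lay farther from the control in both lines: DKK2, ANKRD46, ATP6V1D, IRF9, IFIT1, TMEM87B, SMAD1, POLR3G, SPRYD7 and APOBEC3B. With siITM2A 5 did so: ITM2A, BTG3, MAEA, FERMT2 and PGF. For INPP1, GLB1L2 and MMP9 the lines disagreed. These are single arrays, and the control-based distances were not tested here.

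**Figure D2:**
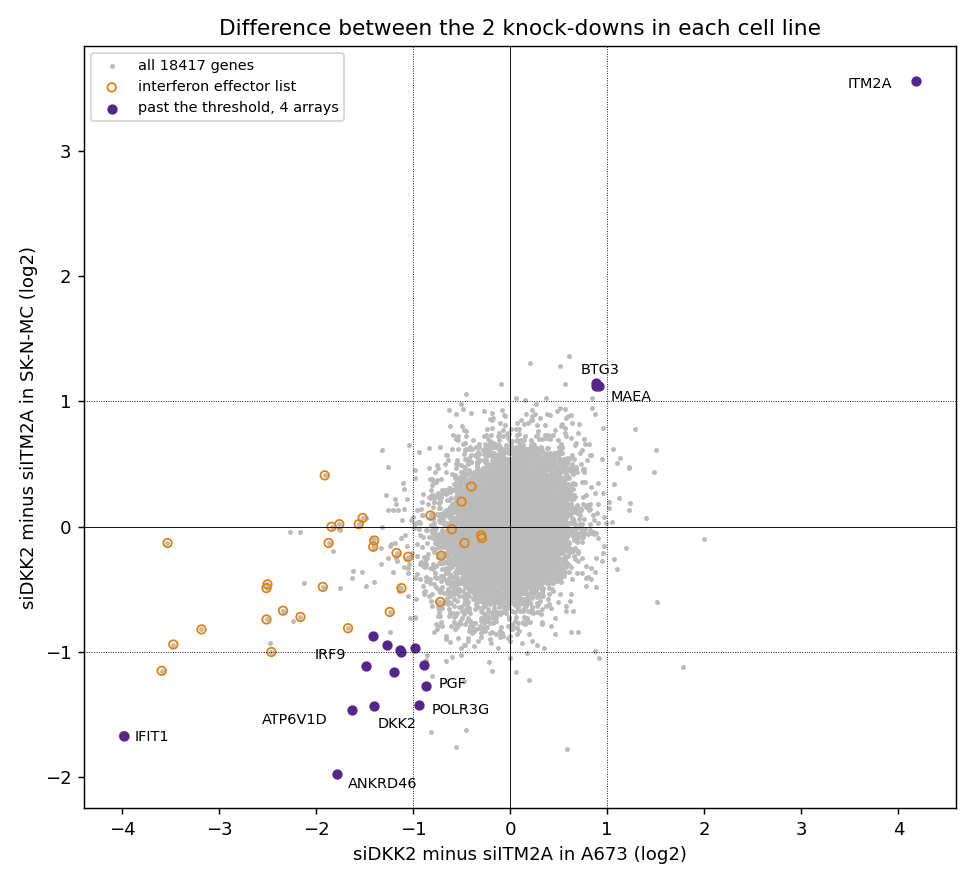
Log2 difference between siDKK2 and siITM2A in A673 (horizontal axis) and SK-N-MC (vertical axis), 1 point per gene, with the interferon effector list ringed, the 18 genes past the threshold filled, and dotted lines at 2-fold. ITM2A stands alone at upper right, most filled points lie around the 2-fold corner at lower left, and the ringed genes stretch to the left, where A673 differs more than SK-N-MC.

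A 2-fold or larger difference in both lines was found in 9 genes on the lower side of siDKK2 (0.0489% of genes) and in ITM2A alone on the higher side (0.00543%). The 9 were IFIT1, ANKRD46, ATP6V1D, DKK2, IFI44L, TMEM87B, IRF9, FERMT2 and IFI44, of which 7 passed the threshold; IFI44L and IFI44 did not. At 1.5-fold 65 genes were lower in both lines (0.353%) and 25 higher (0.136%). Within a line the lower side was also the larger: 93 genes were 2-fold lower and 23 higher in A673, and 31 lower and 14 higher in SK-N-MC. Across all 18417 genes the differences in the 2 lines, which share no array, correlated at r = 0.213, and at 0.331 across the 9209 genes at or above the median level. Genes are not independent replicates, and that correlation is a description.

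Every one of the 34 measured interferon effector genes had a lower value with siDKK2 than with siITM2A in A673, with a median difference of -1.62, and 26 of the 34 were lower in SK-N-MC as well, with a median of -0.22. The medians over all genes were 0.00 in both lines, and 27.5% of all genes were lower in both. IFIT1 was the 1 of the 34 that passed the threshold with 4 arrays, and 0 passed with 6 (limma). With 4 arrays 26 had an unadjusted p under 0.05 (limma), against 9.51% of all genes. The list was written with earlier results on these arrays known, so it is no independent evidence of its direction.

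IFIT1 (probe set 7929065), which binds RNA lacking host cap methylation, stood at 3.41 with siDKK2 and 7.39 with siITM2A in A673, and at 3.15 and 4.81 in SK-N-MC, against controls of 8.12 and 5.10. It was lower with siDKK2 by 15.7-fold in the first line and by 3.18-fold in the second (-2.82 ± 0.40, adjusted p = 0.0481, and 0.26 with 6 arrays). The estimate for IFIT1 was -1.56 with the siDKK2 array of A673 left out and -4.09 with that of SK-N-MC left out. Each of these 2 values rests on 1 siDKK2 array.

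IRF9 (probe set 7973618), a transcription factor of the type I interferon response, was more even between the lines. It stood at 4.47 and 5.96 in A673 and at 3.71 and 4.82 in SK-N-MC, with the controls at 6.40 and 5.00 (-1.30 ± 0.15, adjusted p = 0.0251, and 0.106 with 6 arrays). The estimate for IRF9 was -1.04 with the siDKK2 array of A673 left out and -1.55 with that of SK-N-MC left out. Of the 18 measured genes of interferon receptors, kinases and factors IRF9 was the 1 that passed. The receptor chains IFNAR1 (-0.26 and 0.44) and IFNAR2 (-0.15 and 0.20) and the kinase TYK2 (0.20 and 0.24) showed no common lower value. The interferon genes IFNB1 and IFNL1 stayed near the bottom of the scale on all 4 arrays, at 1.80 to 2.03 and 2.64 to 2.73. The inhibitor SOCS1 had a higher value with siDKK2 (0.40 ± 0.14, adjusted p = 0.41).

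The 2-fold lower neighbours IFI44L and IFI44, whose promoters are shown above, followed IFIT1. IFI44L stood at 4.41 and 7.99 in A673 and at 4.60 and 5.75 in SK-N-MC, a 12.0-fold and a 2.22-fold difference (-2.37 ± 0.42, adjusted p = 0.118). IFI44 stood at 5.44 and 7.90 in A673 and at 5.38 and 6.38 in SK-N-MC (-1.73 ± 0.27, adjusted p = 0.0666). OAS1, an oligoadenylate synthetase, differed by -3.47 and -0.94 (adjusted p = 0.147). With the siDKK2 array of A673 left out, the estimates were -0.98 for IFI44L, -0.93 for IFI44 and -0.83 for OAS1. With that of SK-N-MC left out they were -3.75, -2.53 and -3.58, each resting on 1 siDKK2 array.

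**Figure D3:**
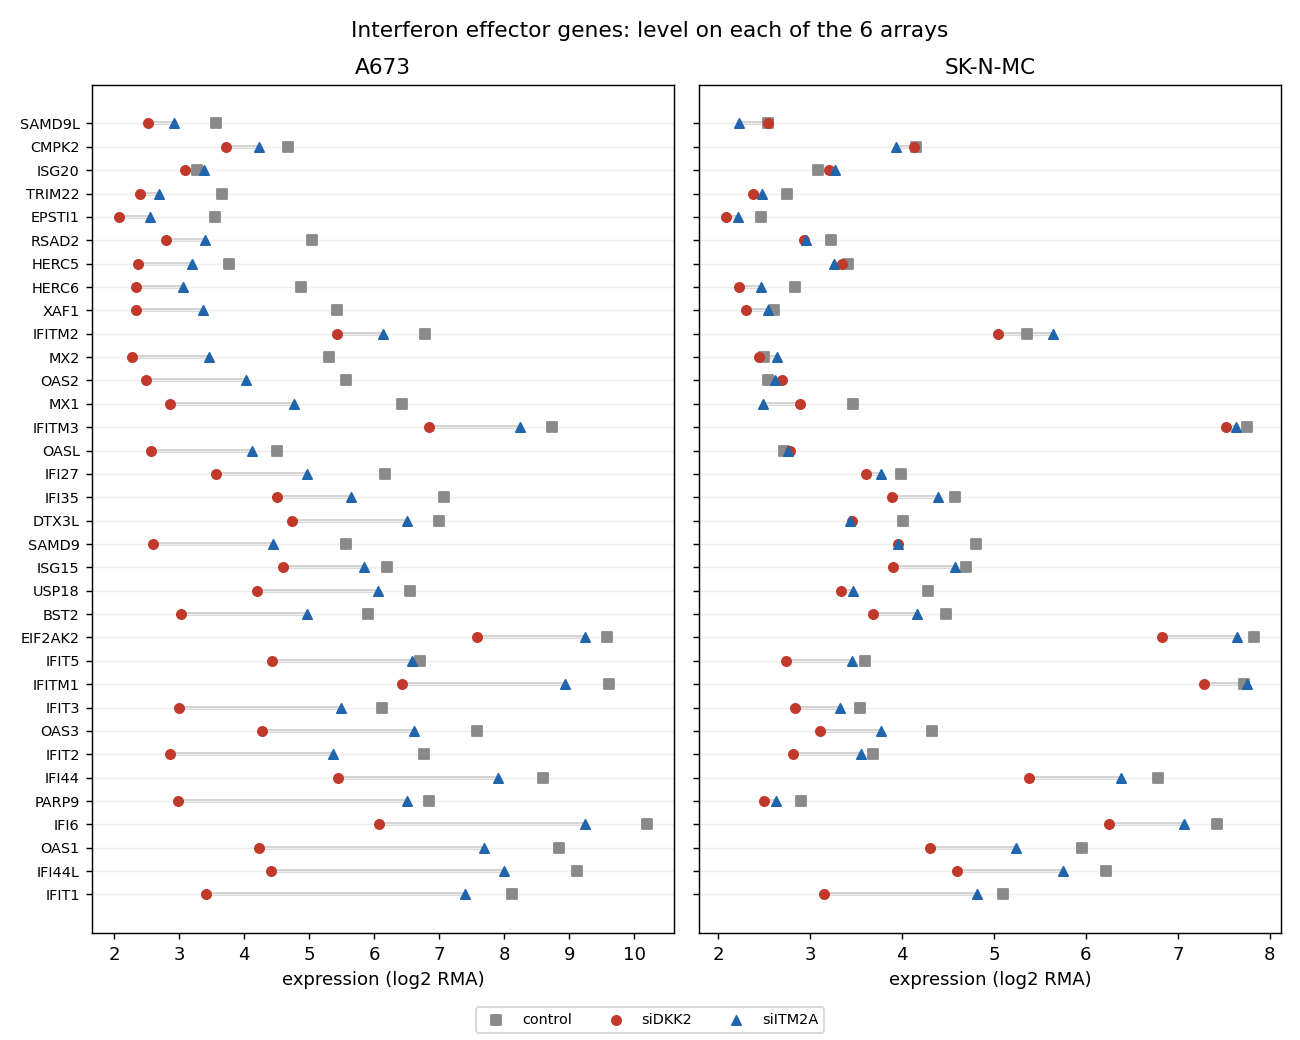
Level of each of the 34 interferon effector genes on the 6 arrays (horizontal axis, log2 RMA), A673 at left and SK-N-MC at right, with 1 point per array and a grey bar joining the 2 knock-downs; the axes of the panels differ in range. In A673 33 of the 34 genes are ordered siDKK2, siITM2A, control from low to high, and in SK-N-MC 22 are, over a narrower range. The share of all genes with that order was not counted.

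The order of the 3 siRNAs was the same across most of the list. In A673 33 of 34 effectors had siDKK2 lowest, siITM2A between and the control highest, with median levels over the list of 3.25, 5.43 and 6.32. In SK-N-MC 22 of 34 had this order, with median levels of 3.27, 3.51 and 4.0. The medians over all genes were 3.97, 4.02 and 4.05 in A673 and 3.97, 3.98 and 3.96 in SK-N-MC. The part of this order with siDKK2 below siITM2A repeats the counts given above. How many of all genes had the order was not counted. ISG20 was the exception in A673. The difference was farther below 0 in A673 than in SK-N-MC for all 34 genes. With siDKK2 the list's median level was thus below the all-gene median of 3.97 in both lines. It was close to the array medians of 3.35 to 3.44, which are over all probe sets, named and unnamed. On the control array the list's median level was lower in SK-N-MC than in A673. Whether a floor of the array made the differences smaller in SK-N-MC was not tested. Some members were dim there, such as OAS2, at 2.69 with siDKK2 and 2.62 with siITM2A. Others were not: IFITM3 stood at 7.52 and 7.63 in SK-N-MC and at 6.85 and 8.25 in A673. EIF2AK2 stood at 6.83 and 7.64 in SK-N-MC and at 7.58 and 9.25 in A673. At 2-fold 25 effectors were lower in A673 and 3 in SK-N-MC.

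Among the 14 measured nucleic acid sensors and adaptors 0 passed (limma, 5 at an unadjusted p under 0.05, each lower with siDKK2). Of all genes 9.51% had such a p in either direction. RIGI, the sensor of short double-stranded RNA ends, stood at 4.59 and 6.83 in A673 and at 3.24 and 4.0 in SK-N-MC (-1.50 ± 0.28, adjusted p = 0.129). EIF2AK2, the kinase PKR that halts translation on binding double-stranded RNA, stood at 7.58 and 9.25 in A673 and at 6.83 and 7.64 in SK-N-MC (-1.24 ± 0.19, adjusted p = 0.0666). IFIH1, the sensor of long double-stranded RNA, differed by -2.16 in the first line and by -0.04 in the second, where it stood at 5.40 and 5.44. The adaptor MAVS, through which RIGI and IFIH1 signal, differed by -0.07 and 0.52, and TLR3 stayed at 2.08 to 2.52. With the siDKK2 array of A673 left out, RIGI differed by -0.71 and EIF2AK2 by -0.78. With that of SK-N-MC left out, the values were -2.28 and -1.70, each resting on 1 siDKK2 array.

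Of 10 measured MHC class I pathway genes 0 passed (limma, 2 at an unadjusted p under 0.05, against 9.51% of all genes). Their median difference was -0.25. In both lines 6 were lower and 0 higher (60% and 0%, against 27.5% and 27.4% of all genes). The immunoproteasome subunit PSMB8 stood at 3.18 and 4.67 in A673 and at 2.29 and 2.22 in SK-N-MC. Of 21 measured NF-kB and cytokine genes 0 passed (limma, 4 at an unadjusted p under 0.05, against 9.51% of all genes). CXCL10, a chemokine induced by interferon, had the largest value, 2.80 against 5.27 in A673 and 2.83 against 3.76 in SK-N-MC (-1.70 ± 0.28, adjusted p = 0.0922). CXCL10 differed by -0.52 with the siDKK2 array of A673 left out, and by -2.88 with that of SK-N-MC left out. The adhesion molecule ICAM1 differed by -1.75 and -0.49 (fitted -1.12, adjusted p = 0.17). ICAM1 differed by -0.48 with the siDKK2 array of A673 left out and by -1.76 with that of SK-N-MC left out. NFKBIA (0.11 ± 0.15) and TNFAIP3 (0.05 ± 0.14), feedback inhibitors induced by NF-kB, did not differ beyond their error.

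Beta protocadherins are neuronal cell-adhesion proteins encoded in 1 gene cluster. Of 16 measured members 8 were higher with siDKK2 and 0 lower in both lines, against 27.4% and 27.5% of all genes. The other 8 differed in opposite directions, and the median difference was 0.15. None passed (limma, 6 at an unadjusted p under 0.05, each higher, against 9.51% of all genes in either direction). PCDHB5 stood at 7.67 with siDKK2 and 6.83 with siITM2A in A673, and at 7.10 and 6.07 in SK-N-MC (0.93 ± 0.14, adjusted p = 0.0575). Its controls, at 7.75 and 6.90, lay with siDKK2. PCDHB16 (0.85 ± 0.17, and 0.56 with the siDKK2 array of SK-N-MC left out), PCDHB8 (0.73 ± 0.14) and PCDHB2 (0.67 ± 0.14) followed, PCDHB8 at levels under 3 on every array. The lowest member, PCDHB6, differed by 0.07 and -0.23. These genes are similar in sequence and 6 of the 16 were at or above the median gene level, so probes may be shared between members and several were dim.

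Other higher values that did not pass belonged to TFAP2B, KLHDC3, SNORA62, ZNF417 and SLC35E1, at 0.77 to 1.04. TFAP2B, an AP-2 transcription factor of neural crest cells, stood at 4.03 and 2.74 in A673 and at 8.82 and 8.04 in SK-N-MC (1.04 ± 0.16, with an adjusted p = 0.0623, and 0.337 with 6 arrays), a gene far more abundant in SK-N-MC on every array. Its estimate was 0.60 with the siDKK2 array of A673 left out. KLHDC3, a substrate receptor of a cullin ubiquitin ligase, differed by 0.96 and 0.79 (adjusted p = 0.0679).

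Of the 22 measured genes of the ATF4 and unfolded protein response 0 passed (limma, 4 at an unadjusted p under 0.05, each lower with siDKK2). Of all genes 9.51% had an unadjusted p under 0.05. The median difference of the list was -0.16, with 12 lower and 1 higher in both lines (54.5% and 4.55%, against 27.5% and 27.4% of all genes). CHAC1, which degrades glutathione, had the largest value, at 3.73 against 4.56 in A673 and 3.61 against 4.17 in SK-N-MC (-0.70 ± 0.14, adjusted p = 0.153), followed by the cystine transporter SLC7A11 (-0.50 ± 0.15) and asparagine synthetase ASNS (-0.43 ± 0.14). The factor ATF4 itself differed by -0.35 and -0.25.

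Of 22 measured proliferation genes 12 were higher and 4 lower in both lines (54.5% and 18.2%, against 27.4% and 27.5% of all genes). The median difference was 0.16, and 0 passed (limma, 2 of 22 at an unadjusted p under 0.05, against 9.51% of all genes). The replication helicase genes MCM2 (0.39 ± 0.14) and MCM4 (0.21 ± 0.14) had higher values, whereas TOP2A (-0.19 ± 0.15) and CDK1 (-0.18 ± 0.14) had lower ones. The cyclin-dependent kinase gene CDK4 stood at 0.44 and 0.51 and its partner CCND1 at -0.29 and -0.26. The growth-arrest gene GADD45A was lower by value in both lines (-0.62 ± 0.15, adjusted p = 0.223), and it differed by -0.41 with the siITM2A array of SK-N-MC left out.

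Of 16 measured sterol synthesis genes 0 passed (limma, 3 at an unadjusted p under 0.05). For this and the lists that follow, the share of all genes was 9.51%. INSIG1, which retains the sterol sensor SCAP in the endoplasmic reticulum, was higher by value (0.46 and 0.77), and the sterol carrier STARD4 lower (-0.79 and -0.30). STARD4 differed by -0.18 with the siDKK2 array of A673 left out, against a fitted -0.54. Of 18 measured bone genes 0 passed (limma, 0 at an unadjusted p under 0.05). TNFSF11, the RANK ligand that drives osteoclast formation, differed by -0.07 and -0.16, its decoy receptor TNFRSF11B by -0.15 and -0.09, and RUNX2, the master factor of osteoblasts, by -0.42 and -0.08. BMP2 and BMP6 differed by 0.26 each. Of 15 Notch pathway genes 0 passed (limma, 1 at an unadjusted p under 0.05), led by the receptor NOTCH2 at -0.48 and -0.41. Of 14 genes of the RNA interference machinery 0 passed (limma, 0 at an unadjusted p under 0.05), and AGO2, the slicer that siRNAs load into, differed by 0.11 and 0.38.

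**Figure D4:**
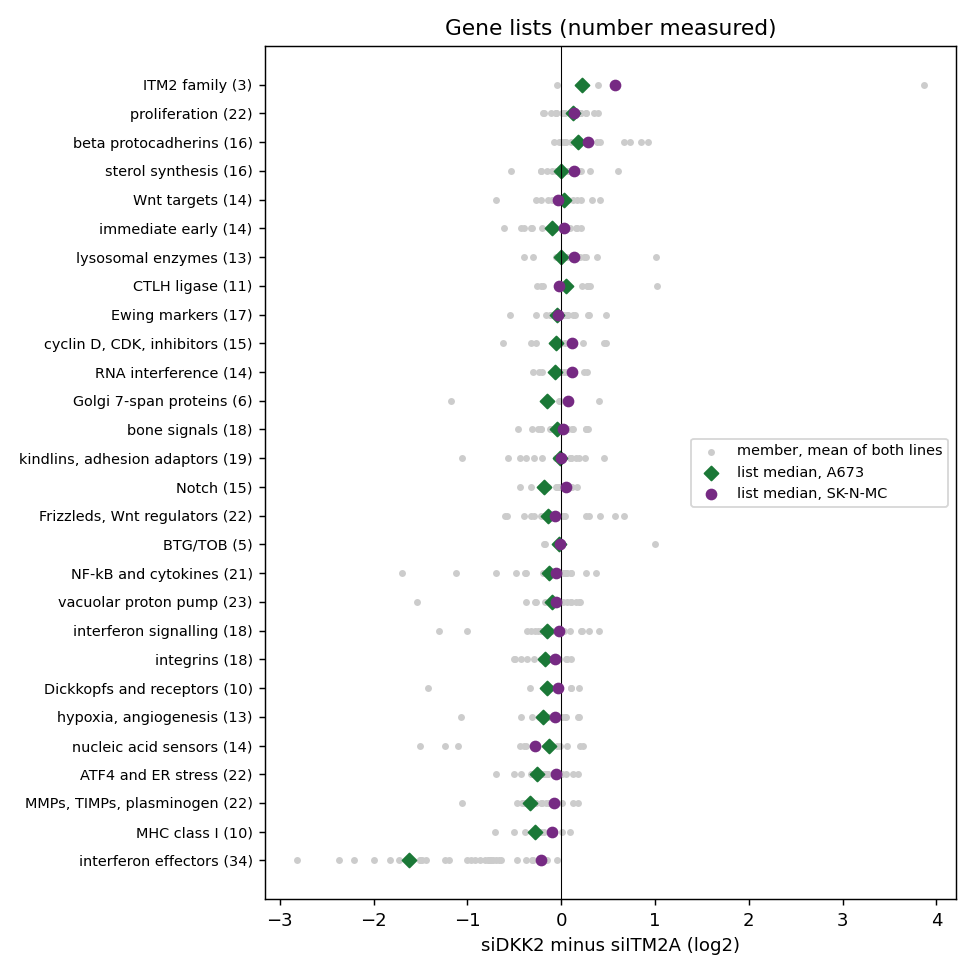
Log2 difference between siDKK2 and siITM2A for 28 gene lists (vertical axis, number measured in brackets), with list medians in A673 (diamonds) and SK-N-MC (circles) and each member's mean over both lines (grey points). Interferon effectors stand apart at the bottom, with medians of -1.62 and -0.22, while the other 27 lists have medians within 0.6 of 0 in each line.

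Over 33297 probe sets the array medians ran from 3.35 to 3.44. Of 17 measured Ewing sarcoma genes 16 were at or above the median gene level, CD99 at 9.79 to 10.73 and NKX2-2 at 5.80 to 6.25 on the 4 arrays. Of these 17 genes 0 passed in the siDKK2 against siITM2A test (limma, 2 at an unadjusted p under 0.05, against 9.51% of all genes). The summed linear level of 10 immune markers was 73 to 93 with siDKK2 and 82 to 120 with siITM2A, and PTPRC stood at 1.96 to 2.09. That of 8 endothelial markers was 52 to 55 and 53 to 62, and that of 9 muscle markers 75 to 90 and 78 to 81. The 9 epithelial markers summed to 655 to 928 and 699 to 777, mostly from KRT18, with EPCAM at 2.11 to 2.44. The macrophage-associated lysosomal gene CD68, the 1 immune marker above the median gene level, had a lower value with siDKK2 in both lines (-0.71 ± 0.15, adjusted p = 0.153). CD68 differed by -0.39 with the siDKK2 array of A673 left out and by -1.03 with that of SK-N-MC left out. With 1 array per line and siRNA, and no label that names repeat cultures, the 2 lines are the only replicates. The p-values set the mean difference of the 2 lines against a spread drawn mostly from all genes. That spread has 8.48 prior against 1 residual degree of freedom. The p-values do not measure variation between repeat cultures.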

How the data were processed

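The authors deposited 1 table of log2 values per probe set for 6 arrays. They were made with RMA in Affymetrix Expression Console, per the submitters' processing notes. RMA corrects background, normalizes between arrays and summarises probes. Its version, its settings and the build were not given in the sources used here. The log2 scale was read from the range of 1.02 to 13.35. RMA compresses differences of dim genes, and signal over background could not be measured.

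Probe sets with 1 gene symbol in the platform annotation (19460 of 33297) were kept; 1754 with several symbols and 12083 not listed stayed unnamed. Where a gene had more than 1 (769 genes), the one highest on average across the 6 arrays was used, leaving 18417 genes. The difference was tested with limma 3.58.1 in R 4.3.3 (lmFit, eBayes) on the 4 arrays with the cell line as a block, since the labels give the same 2 lines in both groups. Benjamini-Hochberg adjustment ran over all 18417 genes, at a threshold of 0.05. This fit has 1 residual degree of freedom (9.48 after moderation). On simulated data 12.1% of its calls were false, more than the threshold allows. The fit of all 6 arrays (2 residual degrees of freedom, 8.28 after moderation) is given beside each call. That fit was not run on simulated data. Leaving out an array uses the 6-array fit, because 3 arrays with the line term leave no residual degrees of freedom; the control arrays and the remaining array of that siRNA then enter the estimate. SE is limma's moderated standard error.

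Genes were named by a fixed rule: the comparison's 5 markers, every gene past the threshold, 10 genes per direction, at or above the median gene level of 4.04, ranked by the smaller of their differences in the 2 lines, leading members of each list, members named for their role, genes that differed in 1 line or in opposite directions. The members and lists were chosen with earlier results of these data known. Alternatives were the 6-array fit, no line term, an intensity trend, robust moderation, no dim genes, the mean of a gene's probe sets, a further quantile normalization, a 1.5-fold threshold and omission of each array. Promoter windows came from RefSeq (GRCh38.p14).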

Additional observations from a re-analysis of the deposited data

Results flagged for a closer look

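In 5 genes siDKK2 and siITM2A differed in opposite directions in the 2 lines by more than in any other gene, measured by the smaller of the 2 sizes. With 1 array per line and siRNA the difference between the lines was not tested. The antisense RNA gene THUMPD3-AS1 was higher with siDKK2 in A673 (1.78) and lower in SK-N-MC (-1.12), the 1 gene that was 2-fold in both directions. The non-coding gene LINC02901 differed by 0.92 (A673) and -1.05 (SK-N-MC), at levels of 1.96 to 3.11 near the floor. The linker histone gene H1-1 differed by 0.87 (A673) against -0.99 (SK-N-MC). PENK, which encodes the enkephalin precursor, had differences of 0.70 (A673) against -0.84 (SK-N-MC) and was far more abundant in SK-N-MC (9.48 and 10.32) than in A673 (5.10 and 4.39). The mitotic motor gene KIF4A differed by 0.65 in the first line and by -0.67 in the second. In all, 18 genes differed by at least 1.5-fold in opposite directions.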

How the results depend on the processing

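The 4 higher and 14 lower calls became 1 and 2 with all 6 arrays in the fit, 0 and 0 with no replicate block (limma, 199 genes at an unadjusted p under 0.05), 30 and 63 with an intensity trend, 13 and 35 without dim genes, and 1 and 5 after quantile normalization again. Leaving out 1 array at a time gave 1 to 5 higher and 0 to 45 lower genes, the most without the SK-N-MC siDKK2 array (limma, 1118 and 1100 at an unadjusted p under 0.05 where 0 were lower, without the A673 and the SK-N-MC siITM2A array). Each omission left 1 array of that siRNA, so those counts rest on a single array. Every one of the 18 genes kept its direction in each of these alternative fits that tested it. The intensity trend kept 18 as calls, robust moderation 16 and the second quantile normalization 6 (ITM2A, ANKRD46, ATP6V1D, DKK2, IRF9 and TMEM87B). The genes lost with robust moderation were IFIT1 and APOBEC3B. The mean of a gene's probe sets kept 18. The 2-fold counts of 1 higher and 9 lower became 25 and 65 at 1.5-fold. The fit has 1 residual degree of freedom and the 2 lines as its replicates, and signal over background could not be measured.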

Other observations

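Among genes at or above the median gene level, some differed in 1 line and by under 1.2-fold in the other. In A673 the 5 largest were PARP9, DDX60L, IFIH1, USP18 and SAMD9, at -3.53 to -1.84, against -0.13 to 0.00 in SK-N-MC. PARP9, the ADP-ribosyltransferase-like partner of the ubiquitin ligase DTX3L, stood at 2.98 with siDKK2 and 6.51 with siITM2A in A673 and at 2.50 and 2.63 in SK-N-MC, where its control was also low at 2.90. DTX3L, chosen after its values were seen, differed by -1.76 in the first line and by 0.02 in the second. USP18, which removes ISG15 from proteins, stood at 4.19 and 6.06 in A673 and at 3.33 and 3.46 in SK-N-MC. IFIH1 differed from these in that its SK-N-MC level was not low, at 5.40 and 5.44 with a control of 5.57.

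In SK-N-MC the 5 largest were the aldo-keto reductase AKR1C3 (-1.22), LGALSL (-1.15), the zinc finger gene ZKSCAN1 (1.01), RAB36 (-0.93) and the pseudogene PLEKHA8P1 (-0.91). AKR1C3 stood at 2.01 with siDKK2 and 3.24 with siITM2A in SK-N-MC, near the floor, and at 10.31 and 10.12 in A673, and AKR1C genes are similar enough to share probes. ZKSCAN1 stood at 6.42 and 5.42 in SK-N-MC with a control of 6.15, and at 5.89 and 5.73 in A673. These are values of single arrays, and no test within a line was possible.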
